A study of Bos taurus with 8 samples.

Results

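Transcript levels of 5 cattle loci associated with growth and stature were followed across 8 tissues: GHR, IGF1, PLAG1, NCAPG and LCORL. The loci were found by position, as the row of the authors' expression table that carries an Ensembl transcript identifier and overlaps most with the gene's interval on the UMD3.1 assembly. All 5 were found, among 24886 rows with an identifier and 36801 rows in all. The RNA-Seq data comprised 1 library each of whole testes, frontal cortex, intercaruncular uterus, mammary parenchyma, the stomach compartments abomasum and rumen, ileum, and nucleated blood cells. The study used these data to relate DNA methylation to gene expression. For its methylation assay, it took tissues of the Hereford cow behind the reference genome and her relatives, and listed testes, uterus and blood cells as adult, mammary gland, cortex, abomasum and ileum as juvenile, and rumen as fetal, with testes and rumen from males. Whether the RNA libraries came from the same animals is not stated, and their labels give neither age nor sex, so tissue, animal, age and sex cannot be told apart.

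Growth hormone from the pituitary acts through its receptor, encoded by GHR, and drives the production of insulin-like growth factor 1, encoded by IGF1, which circulates from the liver and is also made locally in many tissues. PLAG1 encodes a zinc finger transcription factor active mainly in the embryo, and its chromosome 14 region is a well-known stature locus in cattle. NCAPG, a subunit of the condensin I complex that compacts chromosomes in mitosis, and its neighbour LCORL, which encodes a transcription factor, share a chromosome 6 region associated with body size and carcass traits. Liver and pituitary were not among the tissues analysed here.

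Levels are given as FPKM, fragments per kilobase of transcript, scaled to the mapped fragments of the library. This puts genes and tissues on 1 scale, but each value is relative to its own library. On very short rows a few reads give a high FPKM, so comparisons between genes or tissues are approximate. The scaled depth, recovered from the FPKM of short loci with assumed fragment lengths, was 6034000 to 15516000 reads per library. This estimate was not checked against the amount of sequence that the paper states, and every read number and interval below rests on it. At 1 FPKM, a transcript of 1000 bases then received 4.41 to 11.3 reads, and the limit that a count of 0 allows, 3 reads, to 0.264 to 0.680 FPKM. Error bars and intervals are 95% Poisson intervals for a transcript of 1000 bases, or of 2006 bases for PLAG1, and cover counting error only; longer transcripts would have narrower ones. With no replicates, no test between tissues was possible and no difference has a replicate check. Defining markers of each tissue were not analysed here, since none of the 26547 transcript identifiers of the table could be paired with a gene symbol in the reference used. No sequence of the members was at hand, and none is printed.

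GHR, the receptor, was most abundant in uterus and mammary gland by its member row. This row, ENSBTAT00000001758 and ENSBTAT00000036771, extends on chromosome 20 from 31849285 to 32200046 (UMD3.1) and covers the whole interval of the gene. It spans 350762 bases, against 309261 for that interval and 173669 for GHR in RefSeq on the ARS-UCD2.0 assembly. Whether signal from outside the gene was counted in it was not tested. The FPKM reached 18.4 in uterus and 14.1 in mammary gland, against 5.15 in abomasum, 2.83 in rumen, 2.71 in ileum, 1.48 in frontal cortex, 0.679 in whole testes and 0.433 in nucleated blood cells. Uterus and mammary gland together held most of this row's signal, with 40.2% and 30.8% of its summed FPKM. These shares leave out the second row at the locus, described below, which had 20.7 FPKM in whole testes. Their counting intervals overlapped (15.5 to 21.8 in uterus and 10.8 to 18.1 in mammary gland), whereas mammary gland lay above abomasum without overlap (3.82 to 6.78). In bulk tissue, fewer cells of a type and less RNA per cell cannot be told apart. From abomasum down to blood cells, neighbouring tissues in the order overlapped throughout. Within their libraries, the GHR values ranked above 65.6% of expressed genes in uterus and above 57.6% in mammary gland, but above 5.23% in frontal cortex.

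A second row stood at the same GHR locus with the same start and end. It carried ENSBTAT00000036771 alone, so the overlap rule could not separate the 2 rows, and the row with more identifiers was taken as the member after the values of both had been seen. The second row had an FPKM of 20.7 in whole testes, while 0 was listed for each of the other 7 tissues. The testes value of the second row thus exceeded that of the member row (0.679), with counting intervals of 17.5 to 24.2 and 0.224 to 1.57. Summed over both rows, the values were 21.3 in testes and 18.4 in uterus, with overlapping intervals (18.2 to 24.9 and 15.5 to 21.8). The table gives no strand, and the library kit used does not mark strand, so which of the 2 rows holds transcripts of the receptor in testes cannot be told. The order of the tissues other than testes is the same for the member row and for the sum.

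IGF1, the ligand, was highest in uterus as well. Its row, with ENSBTAT00000014713, ENSBTAT00000043595 and ENSBTAT00000063328, lies on chromosome 5 from 66514561 to 66604734 (UMD3.1). It spans 90174 bases, against 71858 for the gene's interval and 78038 in RefSeq (ARS-UCD2.0). The FPKM was 13.9 in uterus, 3.26 in ileum, 2.22 in whole testes, 1.99 in abomasum, 0.525 in mammary gland and 0.442 in rumen, and it was listed at 2.73e-06 in nucleated blood cells and at 0 in frontal cortex. The uterus value held 62.2% of the summed FPKM, and its interval (11.3 to 16.8) overlapped with no other tissue. The values in mammary gland, blood cells and cortex did not exceed the limit that a count of 0 allows on 1000 bases. On the scale of FPKM + 1, uterus was 3.49 times the next tissue, ileum.

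A second row at the IGF1 locus, with ENSBTAT00000014713 alone, had the same start and end. Its FPKM was 20.04 in uterus, 12.6 in whole testes, 2.90 in ileum, 2.85 in abomasum, 2.77 in mammary gland, 0.355 in rumen, 0.315 in frontal cortex and 0.0374 in nucleated blood cells. Uterus was thus the highest tissue in both rows, with no overlap with the next tissue in either. The rows differed most in whole testes, where the second row (10.2 to 15.4) lay above the member row (1.29 to 3.57) without overlap. The lead of uterus over the next tissue fell to 1.55 times in the second row, with testes next, and was 2.21 times over the sum of both rows.

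**Figure D1:**
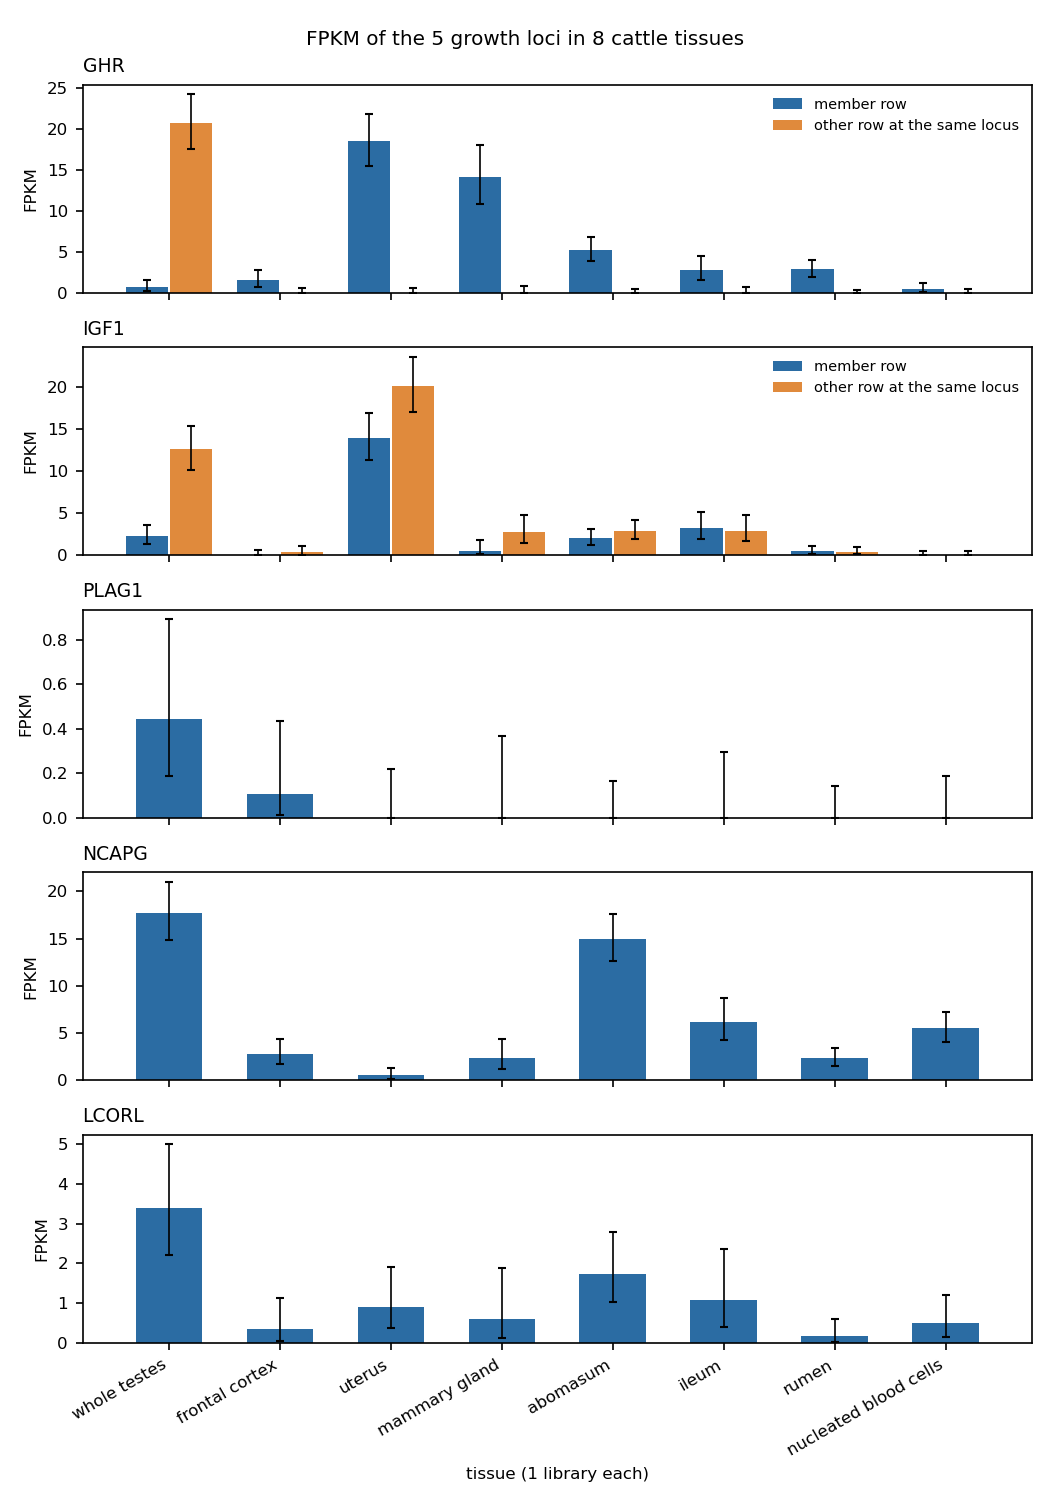
FPKM (y axis, a scale for each gene) of the 5 growth loci in 8 tissues (x axis, 1 library each), where blue bars are the member rows, orange bars the second row listed at the same GHR or IGF1 locus, and error bars 95% Poisson counting intervals. The member rows of GHR and IGF1 peak in uterus (18.4 and 13.9), and those of NCAPG and LCORL in whole testes (17.7 and 3.40). The second GHR row is above 0 in testes only (20.7), and PLAG1 stays below 0.5 in every library.

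The transcription factor PLAG1 was barely detected in any of the 8 tissues. Its row, ENSBTAT00000005251, lies on chromosome 14 from 25007291 to 25009296 (UMD3.1). The FPKM was 0.445 in whole testes and 0.108 in frontal cortex, and 0 was listed for each of the other 6 tissues. If the row's 2006 bases are taken as the transcript, the testes value came from about 8 reads (95% interval 3.21 to 15.3) and the cortex value from about 2 (0.147 to 6.68). A floor of 3 reads corresponded to 0.116 to 0.299 FPKM across the 8 libraries, so the testes value alone was above it. PLAG1 reached an FPKM of 1 in 0 of 8 tissues, as did 29.7% of all genes. The deposited row is short for the gene. RefSeq gives PLAG1 a span of 51971 bases on the ARS-UCD2.0 assembly, so reads from parts of a transcript outside the row's 2006 bases were not counted in it.

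A pair of rows without an identifier stood within 10 kb of the PLAG1 row, on the side of lower coordinates. One spans 2370 bases (25001865 to 25004234), ends 3056 bases from the PLAG1 row, and was above 0 in all 8 libraries. Its FPKM was 2.40 in mammary gland, 2.19 in whole testes, 1.78 in uterus, 1.78 in frontal cortex, 1.29 in rumen, 0.486 in abomasum, 0.400 in ileum and 0.0832 in nucleated blood cells. In reads, these values corresponded to 29, 45, 36, 33, 40, 13, 6 and 2, to the nearest read. The row had more reads than PLAG1 in each library, but in blood cells its value was under the limit that a count of 0 allows (0.125 FPKM). The other row spans 101 bases and was above 0 in abomasum only, at 3726 FPKM, which corresponds to 12 reads on so short a stretch. Whether either row belongs to PLAG1 was not tested.

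**Figure D2:**
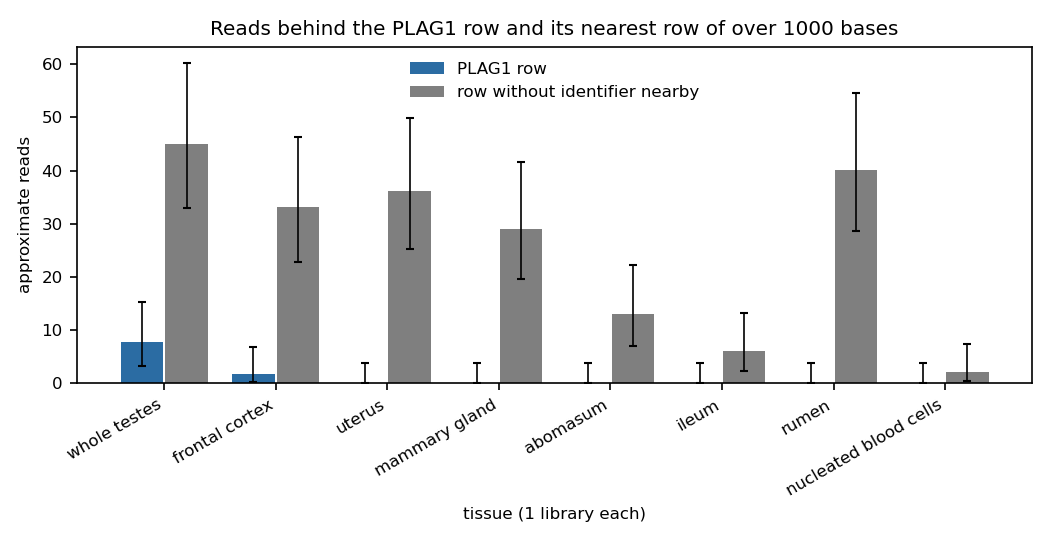
Approximate reads (y axis) behind the PLAG1 row of 2006 bases (blue) and the row without an identifier of 2370 bases near it (grey) in 8 tissues (x axis, 1 library each), with 95% Poisson intervals. PLAG1 has about 8 reads in whole testes, about 2 in frontal cortex and 0 elsewhere, and the other row has 2 to 45 reads.

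NCAPG, the condensin subunit, was most abundant in whole testes and abomasum. Its row, ENSBTAT00000028759, lies on chromosome 6 from 38765926 to 38834275 (UMD3.1). It spans 68350 bases and reaches beyond the gene's interval of 46083 bases, whereas RefSeq (ARS-UCD2.0) gives NCAPG 76507 bases. The FPKM was 17.7 in whole testes, 14.9 in abomasum, 6.20 in ileum, 5.47 in nucleated blood cells, 2.78 in frontal cortex, 2.38 in mammary gland, 2.32 in rumen and 0.493 in uterus. The counting intervals of testes (14.8 to 21.0) and abomasum (12.6 to 17.6) overlapped, and both lay above that of ileum (4.30 to 8.67). At the other end, uterus (0.124 to 1.32) lay below rumen (1.52 to 3.39) without overlap in this row, so the tissue with the highest values of the GHR and IGF1 member rows had the lowest NCAPG. Over the sum of both GHR rows, whole testes had the highest value of GHR as well as of NCAPG, with the overlap with uterus given above. From testes to uterus the range of the NCAPG row was 35.9-fold (12.5-fold on FPKM + 1), with a uterus value that corresponded to 3.65 reads per 1000 bases. It was 15.8-fold over the sum of the rows at the NCAPG locus and 7.65-fold without uterus.

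LCORL, the neighbour of NCAPG, was low throughout. Its row, ENSBTAT00000064559, lies on chromosome 6 from 38840894 to 38992112 (UMD3.1), 6618 bases from the end of the NCAPG row. The FPKM was 3.40 in whole testes, 1.74 in abomasum, 1.07 in ileum, 0.909 in uterus, 0.602 in mammary gland, 0.485 in nucleated blood cells, 0.339 in frontal cortex and 0.156 in rumen. All 7 pairs of neighbouring tissues in this order overlapped in their counting intervals, and those of abomasum and ileum overlapped with that of testes. The values in mammary gland, cortex and rumen did not exceed the limit that a count of 0 allows on 1000 bases. In testes, LCORL ranked above 18.8% of expressed genes, against 57.5% for NCAPG in the same library.

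The members were then set against all genes. None of the 5 member rows reached an FPKM of 1 in all 8 tissues, as 35.8% of all genes did. NCAPG did so in 7 tissues, GHR in 6, IGF1 in 4, LCORL in 3 and PLAG1 in 0. Over the sum of the rows at each locus the numbers were 8 for NCAPG, 7 for GHR and 5 for IGF1. A gene was called higher in 1 tissue if it reached 1 FPKM there and the ratio of FPKM + 1 to that in the next highest tissue was at least 2. In total, 28.6% of all genes met this rule in some tissue and 1.36% in uterus, and of the members IGF1 alone did, in uterus. By the member rows, the ratio was 1.61 for LCORL, 1.29 for GHR and 1.18 for NCAPG. By the second rows alone, IGF1 fell short of the rule (1.55) and GHR met it in whole testes (21.7). Over the sum of its rows, IGF1 met it in uterus (2.21). Of the 4 members with an FPKM of at least 1 in some tissue, NCAPG and LCORL were highest in whole testes, as were 30.8% of such genes, and the member rows of GHR and IGF1 in uterus, as were 7.46%. The tau index, which is 0 for a gene equally expressed everywhere and 1 for a gene found in a single tissue, was 0.476 for NCAPG, 0.568 for GHR, 0.645 for LCORL, 0.762 for IGF1 and 0.960 for PLAG1, against a median of 0.436 over 17484 expressed genes. The value for PLAG1 rests on about 8 reads in testes and 2 in cortex.

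**Figure D3:**
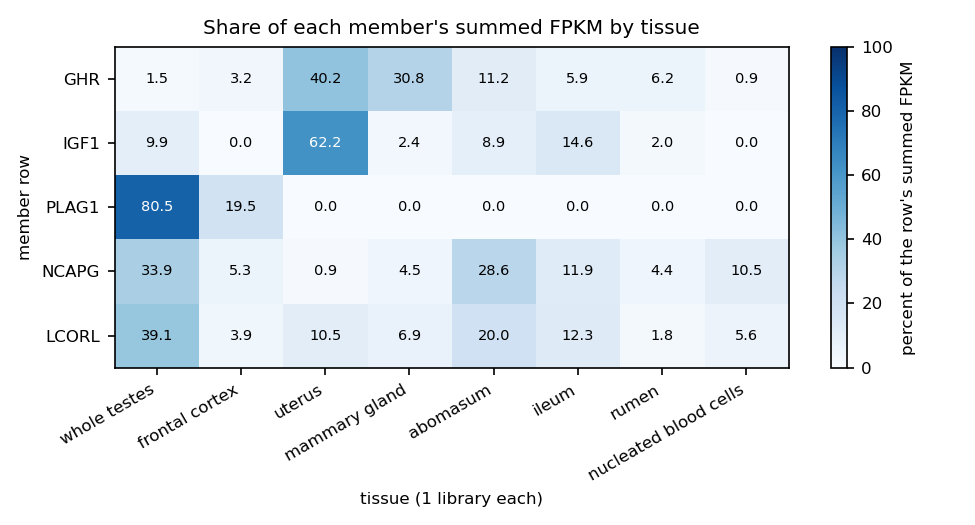
Percent of each member row's summed FPKM over 8 tissues (colour and number) by member (y axis) and tissue (x axis, 1 library each). Uterus holds 62.2% for IGF1 and 40.2% for GHR but 0.943% for NCAPG, and whole testes 80.5% for PLAG1, 39.1% for LCORL and 33.9% for NCAPG.

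Ligand and receptor were compared within each tissue, first by the member rows. There GHR exceeded IGF1 in 6 of 8 tissues, and in 4 of them (mammary gland, abomasum, rumen and frontal cortex) the counting intervals did not overlap. The difference in FPKM was widest in mammary gland, with 14.1 for GHR and 0.525 for IGF1. In uterus the values were 18.4 for GHR and 13.9 for IGF1, with overlapping intervals. IGF1 had the higher value in whole testes (2.22 against 0.679) and ileum (3.26 against 2.71), and the intervals overlapped in both. The choice of row turned part of this order. With both rows of each locus summed, a comparison added after the values were seen, GHR was the higher in testes (21.3 against 14.8) and IGF1 in uterus (33.9 against 18.4), in each case without overlap. In abomasum the sums were 5.15 for GHR and 4.85 for IGF1, and in mammary gland GHR was 4.28 times IGF1. GHR remained the higher in mammary gland and rumen without overlap under both choices. Across the 8 tissues, Pearson's r of log2(FPKM + 1) was 0.558 and Spearman's rho 0.476. Without uterus and cortex, the tissues taken as farthest from the median of IGF1, r was 0.0336. Leaving out uterus alone gave 0.127 and cortex alone 0.517, so the relation of the member rows rested on uterus. Over the sum of the rows at each locus, r was 0.846 and rho 0.810. The points share their libraries and depths, and r is given as a description.

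NCAPG and LCORL, which lie side by side, were compared in the same way. NCAPG exceeded LCORL in 7 of 8 tissues. The ratio was 5.22 in whole testes (95% counting interval 3.40 to 8.32), 8.60 in abomasum (5.19 to 15.2), 5.80 in ileum (2.39 to 17.1) and 11.3 in nucleated blood cells (4.24 to 41.0). In mammary gland (3.95, 0.977 to 25.3), frontal cortex (8.18, 2.12 to 59.0) and rumen (14.9, 3.49 to 158), LCORL was under the limit that a count of 0 allows, and the ratios are poorly determined. The intervals of these 7 ratios overlap with each other, so these tissues cannot be ordered by the ratio. In 6 of the 7 tissues the counting intervals of the levels did not overlap, mammary gland being the exception. Uterus was the tissue in which LCORL was the higher of the pair, at 0.909 against 0.493 (ratio of NCAPG to LCORL 0.543, interval 0.107 to 2.24), with overlapping intervals of the levels, and with the second row at the NCAPG locus added, NCAPG was the higher there too (1.29). The pair shared whole testes, abomasum and ileum as its highest tissues, in this order. Across the 8 tissues, r was 0.723 and rho 0.690, and without testes and uterus, the tissues farthest from the median of NCAPG, r was 0.895. By this measure LCORL ranked 525 among 17483 genes compared with NCAPG, and NCAPG ranked 2595 among those compared with LCORL.

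**Figure D4:**
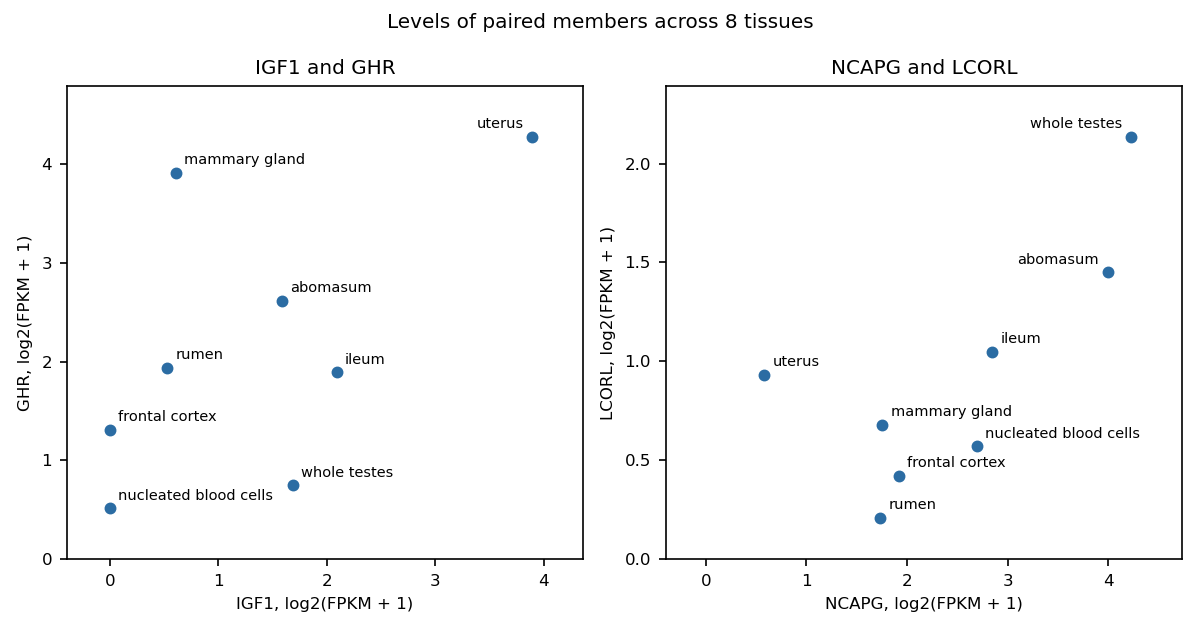
Levels of the member rows of IGF1 against GHR (left) and of NCAPG against LCORL (right) as log2(FPKM + 1), where each point is 1 tissue with 1 library. In the left plot mammary gland stands at high GHR and low IGF1, and in the right plot uterus stands at low NCAPG with the fourth highest LCORL.

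The rows around NCAPG and LCORL were examined for a shared pattern. Within 250 kb of NCAPG stood 14 other rows, 8 of them without an identifier. With NCAPG, 6 of the 15 rows were highest in whole testes. The share over a like set of rows was not computed, so no shared pattern is read from this count. It includes rows without an identifier, which the background of 30.8% leaves out. One of these has the same start and end as the NCAPG row, with 2.61 FPKM in whole testes, 1.84 in abomasum, 1.30 in nucleated blood cells, 0.794 in uterus, 0.752 in rumen, 0.749 in ileum, 0.530 in mammary gland and 0.0635 in frontal cortex. Added to NCAPG it left testes (20.3) and uterus (1.29) with the highest and lowest value, but the interval of uterus (0.604 to 2.40) then overlapped with those of rumen (2.14 to 4.27), frontal cortex and mammary gland. In RefSeq (ARS-UCD2.0), DCAF16 lies inside the span of NCAPG, which is 76507 bases there against 68350 for the row here. On UMD3.1, DCAF16 may fall in this stretch or in a neighbouring row, which was not tested. Nor was it tested whether the second row at the NCAPG locus belongs to either gene. A short row of 442 bases (38834409 to 38834850) lies between the NCAPG and LCORL rows, and it too was highest in whole testes (5.003 FPKM, 11 reads) and abomasum (1.75 FPKM, 5 reads), with at most 3 reads in any other library. The gene row that ends 131 bases before NCAPG, ENSBTAT00000015886, had another order, with 6.10 FPKM in ileum as its highest and 1.14 in rumen as its lowest value. Its uterus value (5.29) was the second highest, whereas NCAPG was lowest there.

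**Figure D5:**
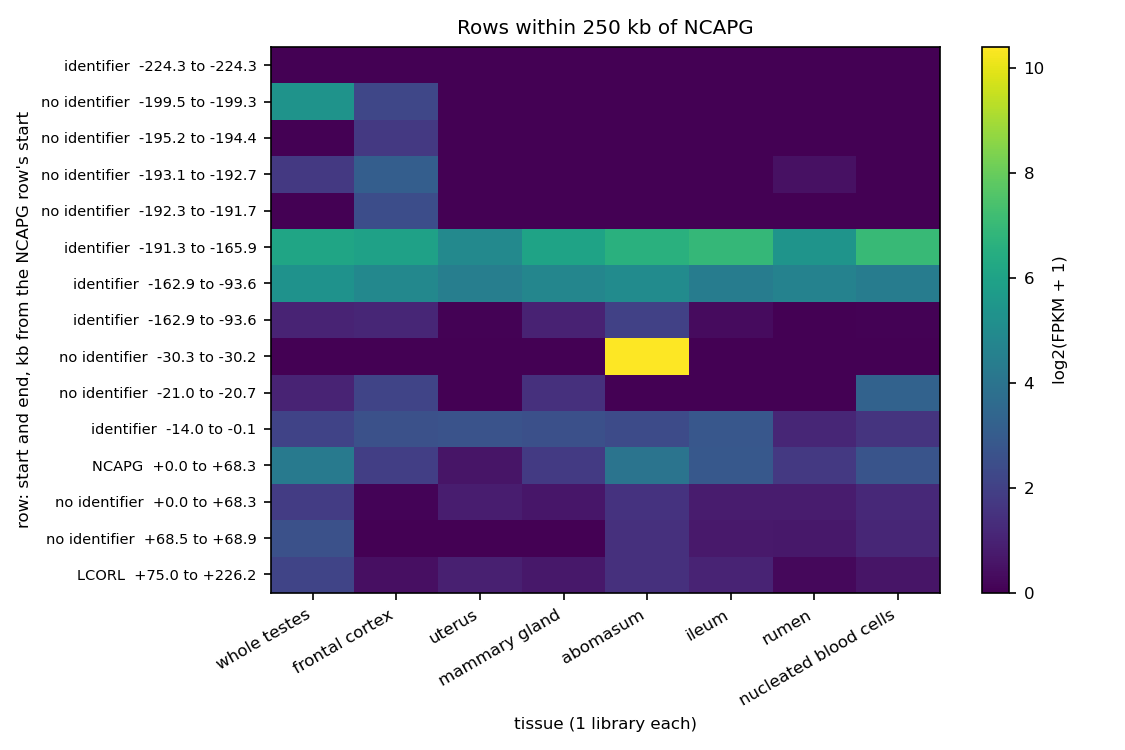
Log2(FPKM + 1) (colour) in 8 tissues (x axis, 1 library each) of the NCAPG row and the 14 other rows of the table within 250 kb, ordered by start (y axis, distance in kb from the start of the NCAPG row). Of the 15 rows, 6 are highest in whole testes, among them NCAPG, LCORL and the 442-base row between them. No share over a like set of rows was computed. The brightest cell is a row of 115 bases with 17 reads in abomasum.

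Genes with a pattern like that of each member row were sought by Pearson's r of log2(FPKM + 1) over the 8 tissues. An r of at least 0.9 was found for 35 genes with GHR, 21 with IGF1, 40 with NCAPG and 110 with LCORL, against a median of 67 over all expressed genes. For PLAG1 the number was 2097, with a pattern set by 1 tissue above the floor. The closest gene to GHR was ENSBTAT00000018367 on chromosome X (142842488 to 142966353, r = 0.989), with 9.04 FPKM in uterus, 7.80 in mammary gland and 1.99 in nucleated blood cells. The closest to IGF1 was ENSBTAT00000063521 on chromosome 15 (63656143 to 63664375, r = 0.969), with 388 FPKM in uterus, 134 in ileum and 14.0 in frontal cortex. By this measure IGF1 ranked 1510 among the 17483 genes compared with GHR, and GHR ranked 1081 among those compared with IGF1. These ranks hold for the member rows. Ranks over the sum of the rows, where r of the pair was 0.846, were not computed.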

How the data were processed

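Per the labels, total RNA was extracted with TRIZOL and made into libraries with the TruSeq RNA kit v2, and the submitters' notes name TopHat2 2.0.13 and UMD3.1. The authors filtered single-end reads, aligned them with TopHat and ran Cufflinks at default parameters. The deposited values are FPKM, scaled between libraries by the authors' software, in the layout of Cuffdiff. The table's fold changes, p-values and q-values are the authors' comparisons and were not used. Starts were raised by 1 to count from 1. Members were found by position, and ties went to the row with more identifiers. Members and lists were chosen with earlier results of these data known. A preset list of pathway genes could not be matched to identifiers and is not analysed here.

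Depth was recovered from loci of 88 to 130 bases without an identifier, with fragment lengths of mean 200 and SD 80 bases and a lower limit of 87. At that depth 94.6% to 100% of the values were within 0.03 of a whole read, and 82.6% to 89.9% of rows of 1000 to 2500 bases with fewer than 12 reads were within 0.05. This depth carries the authors' scaling between libraries. Reads at rows with an identifier are approximate. Genes were named by rule: the 5 members, and the gene closest in pattern to GHR and to IGF1. Other rows were named after their values were seen. Tau and ratios used a pseudocount of 1. The scripts ran in Python 3.11.15 and were tested on simulated data. Alternatives covered thresholds, pseudocounts, scaling, choice of row and leaving out each tissue.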

Additional observations from a re-analysis of the deposited data

Results flagged for a closer look

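The following signals lay in rows outside the 5 member rows and exceeded the limit that a count of 0 allows. The second row at the GHR locus had an FPKM of 20.7 in whole testes, where the member row was below 1. The second row at the IGF1 locus had 2.77 in mammary gland, where the member row had 0.525, and 0.355 in rumen, where it was lower than the member row (0.442). Near PLAG1, the row of 2370 bases without an identifier had 2.40 in mammary gland, and the row of 101 bases had 3726 in abomasum. With 1 library per tissue, no group was large enough to look for outlying samples.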

How the results depend on the processing

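Depth limits the low values: a level under 0.264 to 0.680 FPKM, depending on the library, could not be told from 0 on a transcript of 1000 bases, and with 1 library per tissue the spread between animals is unknown. The number of tissues in which a gene was expressed depended on the threshold. At 5 FPKM it was 3 for GHR, 1 for IGF1, 4 for NCAPG and 0 for LCORL, and at 0.5 FPKM it was 5 for LCORL. The share of genes called higher in 1 tissue (28.6%) was 43.5% over all rows of the table and 40.7% over expressed genes. The tau index fell with a smaller pseudocount, to 0.395 for GHR, 0.618 for IGF1, 0.319 for NCAPG and 0.445 for LCORL at 0.1, and to 0.282, 0.520, 0.226 and 0.296 at 0.01. At a pseudocount of 0.1, r between NCAPG and LCORL was 0.585. The choice of row mattered most for GHR. Over the sum of both rows its highest tissue was whole testes rather than uterus, with a ratio to the next tissue of 1.15. In the second row alone, an alternative chosen after the data were seen, that ratio was 21.7, tau was 1 and the number of tissues was 1. The r between IGF1 and GHR was 0.846 over the sum of rows, also added after the data were seen. For IGF1, tau was 0.644 over the sum and 0.660 in the second row, where the ratio was 1.55 and no longer called.

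With 1 tissue left out at a time, the ratio of the highest to the next tissue ran from 1.29 to 3.16 for GHR, from 1.32 to 4.62 for IGF1, from 1.18 to 2.60 for NCAPG and from 1.32 to 2.12 for LCORL. The ratio of GHR passed 2 without uterus (2.46) and without mammary gland (3.16), that of NCAPG without testes (2.21) and without abomasum (2.60), and that of LCORL without abomasum (2.12). The call of IGF1 ended without uterus (1.32). Tau of IGF1 ran from 0.649 to 0.811. The r between IGF1 and GHR ran from 0.127 without uterus to 0.798 without mammary gland, and that between NCAPG and LCORL from 0.532 without testes to 0.925 without uterus. The changes of ratio named here were 9 of 60 recomputed ratios. Rescaling by median ratios, with factors of 0.888 to 1.05, changed none of the members' calls. No paired analysis was possible because the groups hold single libraries.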

Other observations

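Rows with a signal in testes alone, like the second GHR row, were counted over the whole table. In all, 2314 loci were listed by exactly 2 rows with an identifier at the same start and end. Of the 4628 rows at these loci, 558 (12.1%) reached an FPKM of 1 in exactly 1 tissue, beside 9.98% of all genes, and that tissue was whole testes for 375 (67.2%) and frontal cortex for 61 (10.9%), with 15 to 27 in each of the 6 other tissues. Testes was also the tissue of 58.5% of all 2483 genes expressed in exactly 1 tissue, and of 55.9% of those at other loci. Listed at 0 in all other tissues were 228 rows, 166 of them with testes as the tissue. The gene row pair 15192 bases from GHR, both with ENSBTAT00000047200, also held a row with testes as its main tissue, at 31.8 FPKM there and at 0.0482 or 0 in the rest. Its partner ranged from 39.2 in nucleated blood cells to 331 in uterus and had 210.3 in testes, unlike the GHR member row with 0.679 there.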
